A study of Mus musculus with 14 samples.

Results

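Semaphorins, plexins and neuropilins were examined as 1 family of ligands and receptors in whole brains of fetal mice lacking an active type 3 deiodinase. The members were the genes whose symbol names a semaphorin of class 3 to 7, a plexin of class A to D or a neuropilin. The rule found 31 of the 41934 genes in each table, comprising 20 semaphorins, 9 plexins and 2 neuropilins. All 31 were expressed, with means of 10 or more normalized counts at both ages. Fetuses on the C57BL/6J background, reported as male, were either Dio3+/+ or Dio3-/-. Their brains were taken at E13.5 (4 Dio3+/+ and 2 Dio3-/-) and at E18.5 (3 Dio3+/+ and 5 Dio3-/-). The genotypes were littermates from matings of Dio3+/- mice. The mutation is carried by every cell of the fetus and inactivates the enzyme that clears thyroid hormones, while Dio3 mRNA is still made. Each library came from the whole brain of 1 fetus, so that fewer cells of a type and less RNA per cell cannot be told apart.

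Semaphorins are secreted or membrane-bound ligands that share a sema domain and steer growing axons, migrating neurons and vessels. Plexins are their main receptors and pass the signal to small GTPases inside the cell. Class 3 semaphorins are secreted, and most of them need a neuropilin to bind the receptor complex. Class 4, 5 and 6 semaphorins span the membrane, those of class 5 with thrombospondin repeats outside the cell, and Sema7a is held at the membrane by a lipid anchor. In the fetal brain they guide, among others, thalamic, cortical and commissural axons.

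The tables deposited by the authors give, for each gene and age, a mean normalized count over all libraries, a log2 fold change of Dio3-/- over Dio3+/+ with its standard error, and a p of the Wald test of DESeq2. Values of single fetuses are not in them, so that depth per library is unknown, and whether the genotypes overlap cannot be judged. The level in each genotype was therefore calculated from the mean, the fold change and the number of libraries, and is called the implied level. An adjusted p under 0.05 is a call, and calls were adjusted over all genes kept by a filter on the mean. Median log2 fold changes over all genes with a mean of at least 10 were -0.01 at E13.5 and 0.00 at E18.5. Dio3 mRNA itself was called as lower at E13.5 (log2 fold change -0.89, standard error 0.23, adjusted p = 0.00584). At E18.5 it was called as higher (1.10, standard error 0.15, adjusted p = 8.45e-10). The paper reported increased Dio3 at E13.5 by qPCR, in samples that included females, which is opposite to the value here. The reason was not tested. Since the mutant mRNA is still made, its level does not check the genotype. The genes of neurons Tubb3, Map2, Stmn2, Dcx, Snap25 and Rbfox3 were all present at both ages, and none of the 6 was called at either age. Markers of mesenchyme and cartilage were present too, with means of 10662 for Col1a1 and 5728 for Col2a1 at E13.5. Sex-linked genes, looked at after other values had been seen, did not all follow the label male. Xist, the RNA of the inactive X chromosome in females, had a mean of 5249 normalized counts at E13.5. It was higher in Dio3-/- brains at that age by 3.93 on the log2 scale (standard error 1.11, adjusted p = 0.0169). At E18.5 its mean was 2568 and its log2 fold change 1.43 (standard error 0.99), which was not called (adjusted p = 0.837). The Y-linked genes Ddx3y, Eif2s3y, Kdm5d and Uty had means of at least 1000 at both ages, and of these Kdm5d was called as lower at E13.5 (-0.41 on the log2 scale, standard error 0.07). The libraries that carry Xist cannot be named, and their part in the values of the members was not tested.

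The levels of the members were compared per kilobase of exon, as the mean normalized count over both genotypes divided by the exon length of the gene. Plexins held the 3 highest levels at both ages. At E13.5 the highest levels were those of Plxna1 (1553 per kb), Plxnb2 (1334 per kb) and Plxnb1 (996 per kb), and at E18.5 those of Plxna1 (1086 per kb), Plxnb2 (800.1 per kb) and Plxna2 (765 per kb). Among the ligands, Sema6a (848 per kb) and Sema6c (731 per kb) led at E13.5, while Sema6a (698 per kb), Sema6b (665 per kb) and Sema7a (659 per kb) led at E18.5. Secreted class 3 ligands lay below these leading ligands. They ran from 20.4 per kb for Sema3b to 388 per kb for Sema3f at E13.5. At E18.5 they ran from 21.7 per kb for Sema3g to 406 per kb for Sema3c. At both ages this range overlapped those of the class 4 and class 5 ligands. Plxnb3, a plexin known from oligodendrocytes, was the least abundant member at both ages (2.40 per kb and 8.93 per kb). Its mean count of 15.6 at E13.5 lay below the filter, so that 30 members were tested at E13.5 and 31 at E18.5. No spread between fetuses is given for these levels, and the ages were normalized apart, so the order of neighbouring genes and the change with age were not tested.

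**Figure D1:**
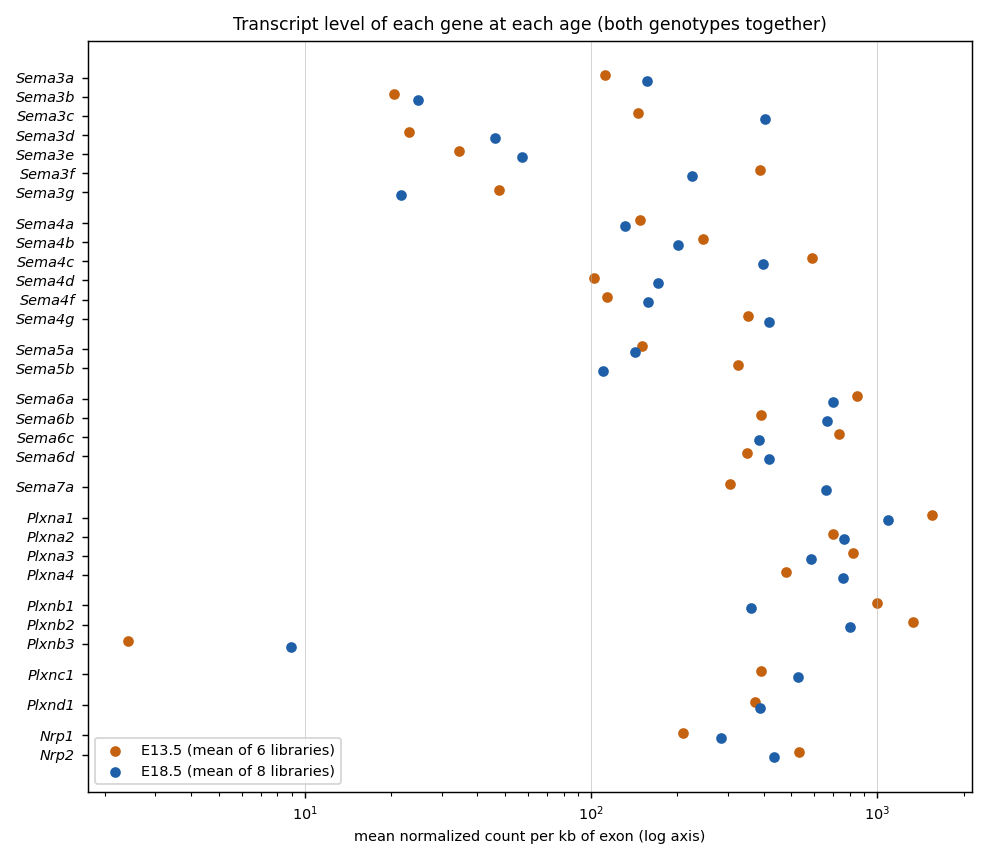
Transcript level of each member, as the mean normalized count per kb of exon (log axis) over the 6 libraries of E13.5 (orange) and the 8 libraries of E18.5 (blue), genotypes together. Plxna1 and Plxnb2 lie farthest to the right at both ages, and Plxnb3 lies lowest at 2.40 and 8.93 per kb.

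At E18.5 the genotypes differed most in Sema3c and Sema7a, which were higher in Dio3-/- brains, while Plxna1, Plxnb1, Plxnc1, Nrp2 and Sema6a were lower by 9.11 to 10.8%. Thus 7 of 31 members were called, 2 higher and 5 lower, which is 22.6% of the members. Of all 17607 genes tested at E18.5, 1.37% were called, 0.960% as higher and 0.415% as lower. An unadjusted p under 0.05 was found for 9 of the 31 members and for 8.04% of all tested genes. The members had higher counts than most genes (median 2640 against 399.9 over the tested genes) and smaller standard errors (median 0.05 against 0.09). Among the 5471 tested genes with a mean count of at least 1000, 2.30% were called, against 7 of the 23 members above that count (30.4%). All 7 calls rest on a normal distribution of the test statistic. Under a t distribution (6 degrees of freedom) none of the members was called and 1 of all tested genes was. An unadjusted p under 0.05 was then found for 9 members and for 714 of all 17607 tested genes.

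The class 3 ligand Sema3c is secreted and acts through neuropilins with class A plexins or Plxnd1. It lies on chromosome 5 of GRCm38 from 17574281 to 17730268 (ENSMUSG00000028780.13), and none of its exons overlaps another gene. Its implied level at E18.5 was 2021 normalized counts in Dio3+/+ and 3423 in Dio3-/- brains. The difference was 1.69-fold (95% interval 1.58 to 1.82), or 0.76 on the log2 scale (standard error 0.05), with an adjusted p of 6.16e-45. By p it was the gene at rank 2 of all tested genes, after Klf9, a Kruppel-like factor and established target of T3. By the size of the rise it was at rank 56. Over the alternatives its adjusted p ran from 5.91e-45 with the deposited adjustment to 0.0549 with the t distribution.

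Sema7a, the anchored ligand that binds Plxnc1 and integrins, was the other ligand that rose at E18.5. It lies on chromosome 9 from 57940112 to 57962865 (ENSMUSG00000038264.8). Its implied level was 1831 normalized counts in Dio3+/+ and 2378 in Dio3-/- brains, which is 1.299-fold (95% interval 1.21 to 1.39; log2 fold change 0.38, standard error 0.05; adjusted p = 3.76e-10). It stood at rank 14 by p, and its adjusted p ran from 3.36e-10 with the deposited adjustment to 0.415 with the t distribution. Plxnc1, its plexin receptor, changed the other way, with implied levels of 4657 and 4232 (log2 fold change -0.14, standard error 0.04, adjusted p = 0.0322). Itgb1, the integrin subunit that Sema7a also binds, was at 0.03 on that scale (standard error 0.04, adjusted p = 0.980). Itga1, the integrin subunit that pairs with Itgb1, was called as higher (0.29, standard error 0.07, adjusted p = 0.00320). The ligand and its plexin were called in opposite directions at this age, although the call of Plxnc1 was lost without the filter (adjusted p = 0.0586), with GC content and length removed (adjusted p = 0.0510) and with the t distribution (adjusted p = 0.999), and its lowest adjusted p was 0.0239 after centring.

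Promoter sequences were read for Sema7a and Plxnc1, a ligand and its receptor, over the 250 bases before the start that RefSeq gives on GRCm38.p6. Windows were found for 26 of the 31 members, some with several starts, 37 windows in all. For Sema3c the RefSeq start lies inside the first exon of the longer GENCODE transcript, and its window is therefore not shown. Capitals mark GGGCGG, the core of the GC box bound by Sp and Kruppel-like factors, on either strand. The window of Sema7a is chr9:57939862-57940111 on the plus strand, and that of Plxnc1 is chr10:94944846-94945095 on the minus strand, both written along the gene.
Sema7a: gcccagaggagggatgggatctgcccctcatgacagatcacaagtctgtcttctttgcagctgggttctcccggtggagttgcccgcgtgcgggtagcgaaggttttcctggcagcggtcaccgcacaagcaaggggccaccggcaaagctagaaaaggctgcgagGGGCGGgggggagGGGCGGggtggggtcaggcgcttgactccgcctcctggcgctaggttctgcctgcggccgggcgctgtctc
Plxnc1: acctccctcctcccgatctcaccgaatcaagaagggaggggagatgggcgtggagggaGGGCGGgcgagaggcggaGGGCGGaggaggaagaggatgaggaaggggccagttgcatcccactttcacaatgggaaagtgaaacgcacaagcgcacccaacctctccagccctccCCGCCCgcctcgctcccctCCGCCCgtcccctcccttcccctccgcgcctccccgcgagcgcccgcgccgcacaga

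The Sema7a window held GGGCGG at 2 places, beginning 84 and 71 bases before the start, and the Plxnc1 window at 4 places. Of all 32851 windows of this length 32.7% held the motif on either strand, as did 27 of the 37 windows of the members, from 21 genes. The half-site AGGTCA, which thyroid hormone receptors bind, was searched on both strands and was in neither of the printed windows. It was in 14.0% of all windows and in 7 of the 37 windows of the members (Nrp1, Plxnb2, Plxnd1, Sema4b, Sema4d, Sema5a and Sema6b). Neither motif can overlap the other, and a match describes the letters in this window alone. Of the 7 genes with the half-site in a window, Sema5a was called at E13.5 and none at E18.5. Plxna1 and Sema6a, both called at E18.5, had no window and were not searched. Over all tested genes 3.56% were called at E13.5 and 1.37% at E18.5, and a link of motif and call was not tested.

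The other receptors called at E18.5 were all lower. Plxna1, the most abundant member per kb of exon and a receptor for class 3, class 5 and class 6 ligands, had implied levels of 10546 in Dio3+/+ and 9406 in Dio3-/- brains (log2 fold change -0.16, standard error 0.04, adjusted p = 0.000887). It lies on chromosome 6 from 89316314 to 89362620. Of its exon bases 10.7% lie under another annotated transcript, Gm26811, and the counting without strand cannot separate reads there. Nrp2, the neuropilin preferred by Sema3f and also bound by Sema3c (chromosome 1 from 62703285 to 62818695), had implied levels of 5533 and 4953 (log2 fold change -0.16, standard error 0.04, adjusted p = 0.00367). Plxnb1, the receptor of Sema4d (chromosome 9 from 109095389 to 109119917), had implied levels of 3693 and 3346 (log2 fold change -0.14, standard error 0.04). Its adjusted p of 0.0464 was just under the threshold and rose to 0.0842 without the filter, to 0.0605 with the statistic divided by its central spread and to 0.135 with GC content and length removed. Over all alternatives it ran from 0.0349 after centring to 0.999 with the t distribution. Sema6a, a class 6 ligand that binds Plxna2 and Plxna4, was the only ligand called as lower at E18.5, with implied levels of 6568 and 5859 (log2 fold change -0.16, standard error 0.04, adjusted p = 0.00615).

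**Figure D2:**
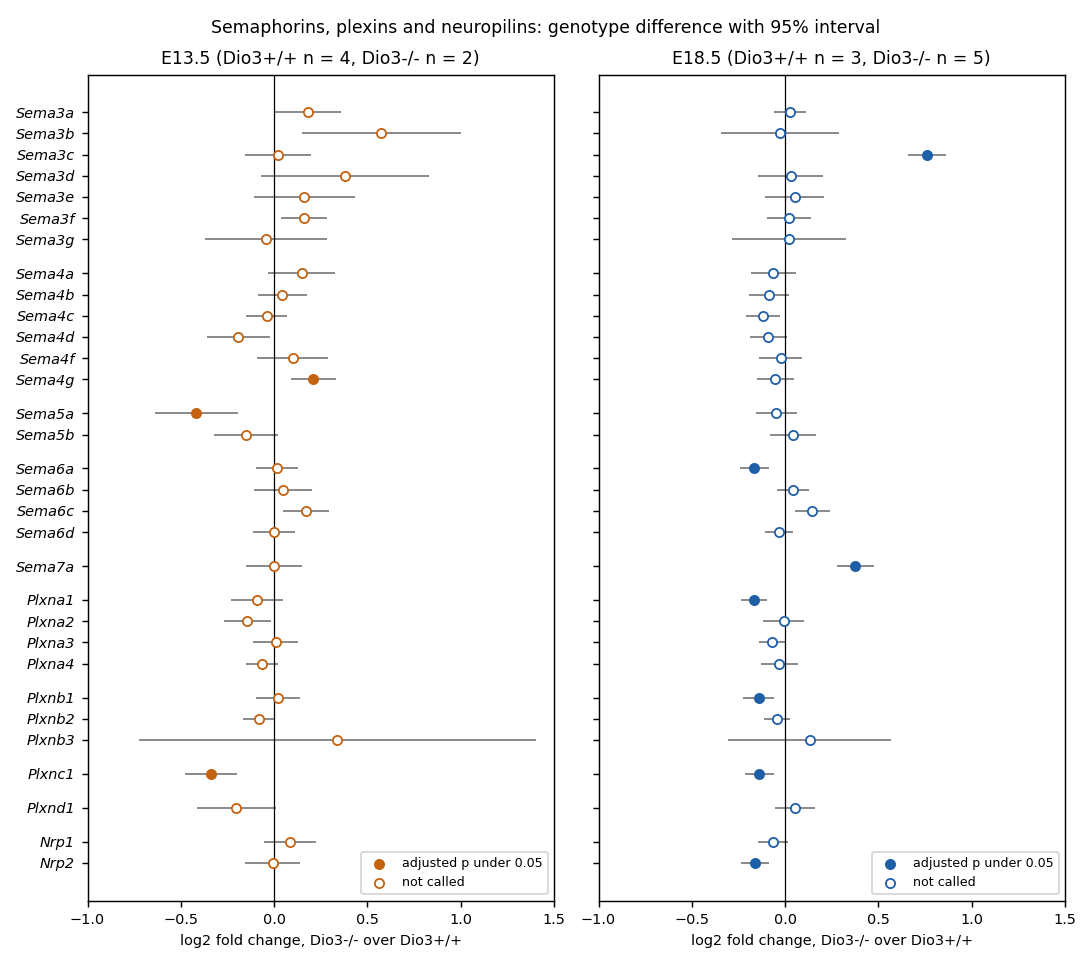
Log2 fold change of Dio3-/- over Dio3+/+ for each member with its 95% interval, at E13.5 (left, 4 and 2 libraries) and E18.5 (right, 3 and 5 libraries). Filled points have an adjusted p under 0.05: 3 members at E13.5 and 7 at E18.5, with Sema3c farthest from 0 at E18.5 (0.76).

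Most of the remaining members at E18.5 had intervals close to 0. Of the 24 members that were not called, 21 had a 95% interval inside -0.25 to 0.25 on the log2 scale. The exceptions were Sema3b, Sema3g and Plxnb3, which had the lowest levels per kb at E18.5. Sema6c came nearest to a call (log2 fold change 0.15, standard error 0.05, adjusted p = 0.109), followed by Sema4c (-0.12, standard error 0.05, adjusted p = 0.291). Class A plexins other than Plxna1 had log2 fold changes of -0.01 (Plxna2), -0.03 (Plxna4) and -0.07 (Plxna3), none of them called. Nrp1, the neuropilin preferred by Sema3a, had one of -0.07 (95% interval -0.15 to 0.01), and Plxnd1, the receptor of Sema3e, one of 0.05 (95% interval -0.05 to 0.16). Within class 3, the 6 ligands other than Sema3c lay between -0.03 and 0.05.

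By class, the median log2 fold change at E18.5 was 0.03 for the 7 class 3 ligands, -0.07 for the 6 class 4 ligands, 0.00 for the 2 class 5 ligands and 0.01 for the 4 class 6 ligands. All 6 class 4 ligands had negative values from -0.12 to -0.02, although none was called. Values were negative for 7 of the 9 plexins (median -0.04) and for both neuropilins, with 3 plexins and 1 neuropilin called as lower and no plexin or neuropilin called as higher. The implied levels summed over the 9 plexins were 56748 in Dio3+/+ and 54254 in Dio3-/- brains. These counts and medians describe the lists and were not tested as sets.

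Set beside their receptors, the other ligands gave the following values on the log2 scale at E18.5. Sema3f, which repels axons through Nrp2, was at 0.02 (standard error 0.06) while Nrp2 was lower. Sema4d was at -0.09 (standard error 0.05, adjusted p = 0.705) and its receptor Plxnb1 at -0.14. Sema3e, which acts on Plxnd1 without a neuropilin, was at 0.05 (standard error 0.08), as was Plxnd1. Sema3a, the ligand of Nrp1, was at 0.03 (standard error 0.04), with implied levels of 2143 in Dio3+/+ and 2183 in Dio3-/- brains. Sema6a was lower whereas its receptors Plxna2 and Plxna4 were not called, with implied levels of 13177 and 13112 for Plxna2 and of 10792 and 10559 for Plxna4.

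No other member of class 4 or class 6 was called at E18.5. Sema4a, Sema4b and Sema4f, further membrane-bound ligands, were at -0.06, -0.08 and -0.02. Sema4c, a ligand of Plxnb2, was at -0.12 and has 7.27% of its exon bases under another annotated gene, D430040D24Rik. Sema6b and Sema6d, ligands of class A plexins, were at 0.04 and -0.03. Sema6c had positive values at both ages, on implied levels of 4167 and 4690 at E13.5 and of 2149 and 2379 at E18.5, and was not called at either age (adjusted p of 0.140 and 0.109). Its log2 fold change of 0.15 at E18.5 was no smaller in size than those of the called Plxnb1 and Plxnc1 (both -0.14).

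**Figure D3:**
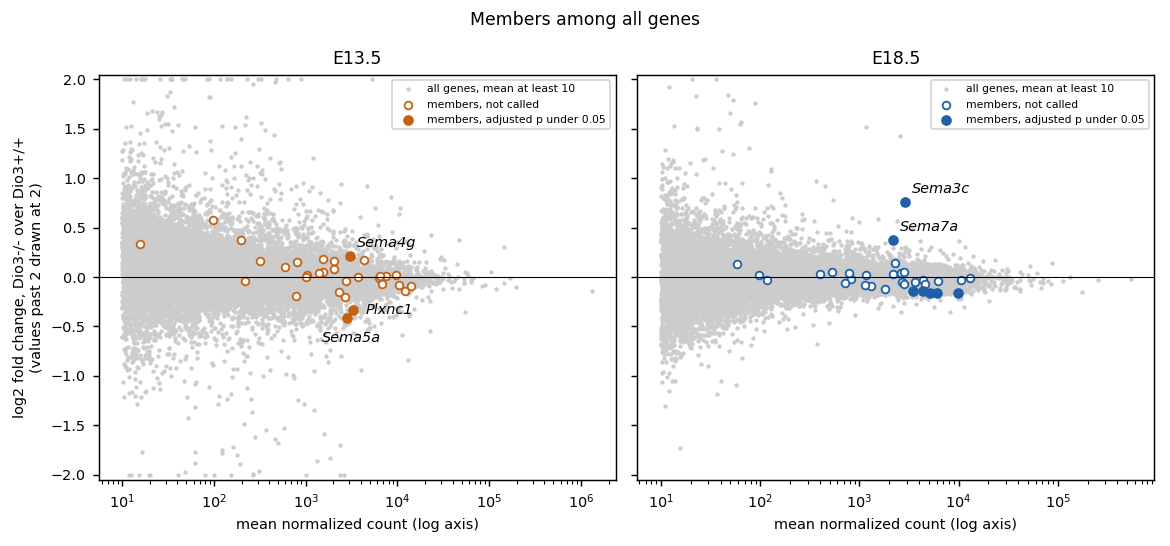
Log2 fold change against the mean normalized count (log axis) for all genes with a mean of at least 10 (grey) and the members (coloured; filled where the adjusted p is under 0.05), at E13.5 and E18.5, with values past 2 drawn at 2. Sema3c and Sema7a stand above most genes of like level at their mean counts of 2897 and 2173 at E18.5.

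At E13.5, Plxnc1 and Sema5a were lower and Sema4g was higher in Dio3-/- brains, and no other member was called. These 3 calls among 30 members tested compare with 3.56% of all 16436 genes tested (1.24% as higher and 2.32% as lower). An unadjusted p under 0.05 was found for 9 of the 30 members and for 1969 of all 16436 tested genes. Among tested genes with a mean count of at least 1000, 5.20% were called, and 3 of the 23 members above that count were. The median standard error of the members was 0.07. Under a t distribution (4 degrees of freedom) no member and no gene was called, while 3 members and 799 genes had an unadjusted p under 0.05.

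Plxnc1 (ENSMUSG00000074785.5, chromosome 10 from 94790866 to 94944835) had implied levels of 3524 normalized counts in Dio3+/+ and 2788 in Dio3-/- brains at E13.5, which is 0.791-fold (95% interval 0.719 to 0.871). The log2 fold change was -0.34 (standard error 0.07) and the adjusted p 0.000227. It was the only member called at both ages, each time as lower, and the values at the ages differed by 0.20 on the log2 scale (standard error 0.08), which was not called (adjusted p = 0.260). Its ligand Sema7a had implied levels of 1008 and 1007 at E13.5 (log2 fold change 0.00, 95% interval -0.15 to 0.15).

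Sema5a, a ligand with thrombospondin repeats that acts through Plxna1 and Plxna3 (ENSMUSG00000022231.10, chromosome 15 from 32244810 to 32696341), had implied levels of 3074 and 2303 at E13.5 (log2 fold change -0.42, standard error 0.11, adjusted p = 0.0114). Sema5b, the other class 5 ligand, was at -0.15 on the same scale (standard error 0.09) and was not called. Sema4g, a class 4 ligand that binds Plxnb2 (ENSMUSG00000025207.16, chromosome 19 from 44989101 to 45003397), had implied levels of 2905 and 3360 (log2 fold change 0.21, standard error 0.06, adjusted p = 0.0237). After division of the Wald statistic by its central spread, Sema5a and Sema4g lost the call (adjusted p of 0.0566 and 0.0957), whereas Plxnc1 kept it. Under the t distribution the adjusted p of each of the 3 was 0.962. The receptor Plxnb2 was at -0.08 (standard error 0.04) and was not called.

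Several members had larger values at E13.5 with wide intervals. Sema3b was at 0.57 on the log2 scale (standard error 0.22, adjusted p = 0.151), on implied levels of 84.0 and 125, and Sema3d was at 0.38 (standard error 0.23, adjusted p = 0.571). Of the 7 class 3 ligands 6 had positive values, with a median of 0.16 and none called. All 4 class 6 ligands had positive values between 0.00 and 0.17, also without a call. Sema3f was at 0.16 (standard error 0.06, adjusted p = 0.192), Sema3a at 0.18 (standard error 0.09, adjusted p = 0.403) and Sema4d at -0.19 (standard error 0.09, adjusted p = 0.287). Plexins had a median of -0.08, with Plxna2 at -0.14 (standard error 0.06, adjusted p = 0.285) and Plxnd1 at -0.20 (standard error 0.11, adjusted p = 0.461). Nrp1 and Nrp2 had values of 0.08 and -0.01. Of the 27 tested members that were not called, 14 had an interval inside -0.25 to 0.25, so that for the other 13 a difference of that size was not excluded by the interval. Sema3c had implied levels of 1038 and 1054 at E13.5 (log2 fold change 0.02, 95% interval -0.16 to 0.20).

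Markers of brain regions and of tissue outside the brain moved with genotype at E13.5, beside every call given for that age. All 13 telencephalon markers had negative values and 12 were called as lower (median -1.68 on the log2 scale). Dlx1 and Dlx2, transcription factors of the ventral telencephalon, had log2 fold changes of -1.70 (standard error 0.09) and -1.86 (standard error 0.10). The summed implied level of the list was 19308 in Dio3+/+ and 6625 in Dio3-/- brains. Of the hindbrain and spinal cord markers, mostly Hox genes, 14 of 15 reached a mean of 10. All 14 had positive values, and 4 were called as higher, with a median of 2.01 and summed implied levels of 3455 and 11348. All 6 cartilage markers were called as higher (median 1.89, summed implied levels 5195 and 9298). Of the 12 markers of mesenchyme and leptomeninges all had positive values and 1, Dcn, was called (median 0.56, summed implied levels 29237 and 47105). Median values were 0.09 for 8 endothelial markers and 0.21 for 7 microglia markers with none called, and 0.05 for the 6 neuronal markers. The 6 oligodendrocyte lineage markers had a median of 0.11 with 3 positive and 3 negative values, of which Olig2 alone was called, as lower, while Sox10 was at 0.75 and Pdgfra at 0.64 without a call. The 7 markers of neural progenitors had a median of -0.06, with Pax6 and Sox2 called as lower and 3 positive values. None of these markers was listed at 0 at E13.5. No range over libraries can be given for these sums. The part of these markers in the values of Plxnc1, Sema5a and Sema4g was not tested.

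At E18.5 fewer genes of these lists were called. None of the 13 telencephalon markers was called (median -0.03, summed implied levels 31069 and 30346) and none of the 5 cartilage markers with a mean of at least 10 (median 0.03). The 13 hindbrain and spinal cord markers with a mean of at least 10 had a median of 0.21. Hoxc8 was listed at 0. Of the mesenchyme and leptomeninges markers 3 of 12 were called as higher, Dcn, Col3a1 and Ogn (median 0.10, summed implied levels 17425 and 17922). Endothelial markers had a median of 0.03 with Flt1 called as higher, and the 7 microglia markers had a median of 0.15 with none called. Of the 6 red cell markers 2 were called as lower (median -0.37), as were 4 of 6 at E13.5 (median -0.50). Vim was called as lower among the 7 progenitor markers, and the neuronal markers had a median of 0.01. The part of these lists in the values of Sema3c and Sema7a was not tested.

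**Figure D4:**
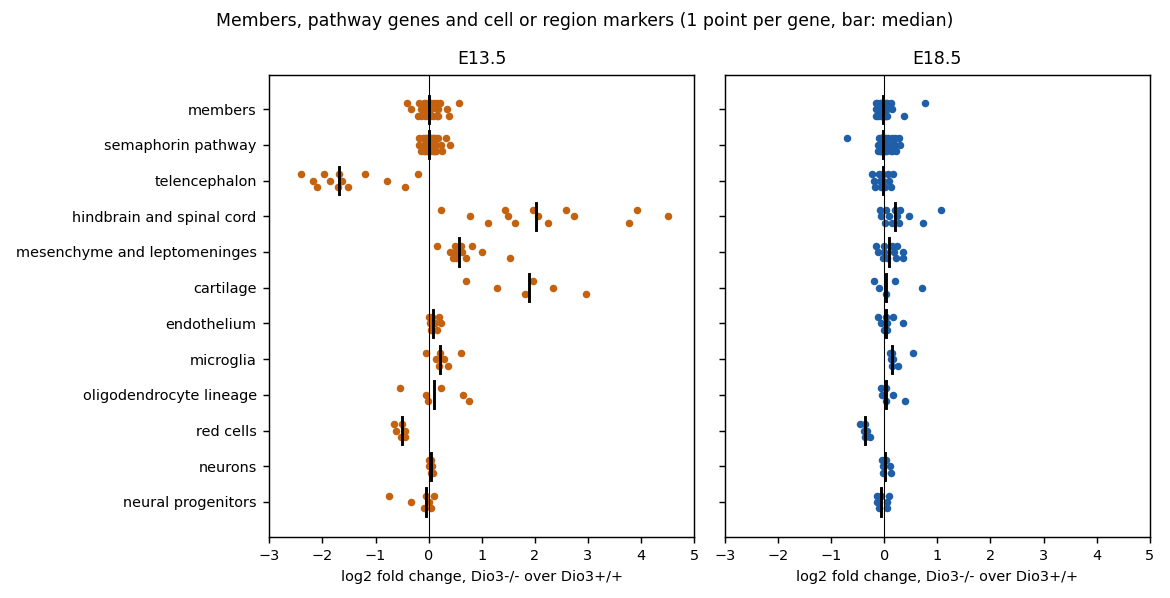
Log2 fold change of Dio3-/- over Dio3+/+ for the members, the semaphorin pathway genes and the marker lists at E13.5 and E18.5, 1 point per gene with a mean of at least 10 and a bar at the median. Telencephalon markers lie low at E13.5 (median -1.68), hindbrain and spinal cord markers (2.01) and cartilage markers (1.89) lie high, and the members center near 0 at both ages.

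The genotype effect was compared between the ages for each member, because a call at 1 age alone does not show a difference. It differed for Sema3c and Sema7a, and these are 2 of 31 members, against 1.95% of all 17793 genes tested. The effect on Sema3c was larger at E18.5 by 0.74 on the log2 scale (95% interval 0.53 to 0.94, adjusted p = 2.56e-09). For Sema7a it was larger by 0.38 (95% interval 0.20 to 0.56, adjusted p = 0.00495). Under a t distribution (10 degrees of freedom) the adjusted p were 0.0516 and 0.254. For Sema4g, higher at E13.5 and not called at E18.5, the difference was -0.26 (standard error 0.08) and missed the threshold narrowly (adjusted p = 0.0522). After centring of the fold changes at each age it was -0.29 with an adjusted p of 0.0241. For Sema5a the difference was 0.37 (95% interval 0.12 to 0.62, adjusted p = 0.116). The lower values of Plxna1, Nrp2, Plxnb1 and Sema6a at E18.5 were not shown to differ from those at E13.5, with differences of -0.07, -0.15, -0.16 and -0.18 and adjusted p from 0.238 to 0.868.

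**Figure D5:**
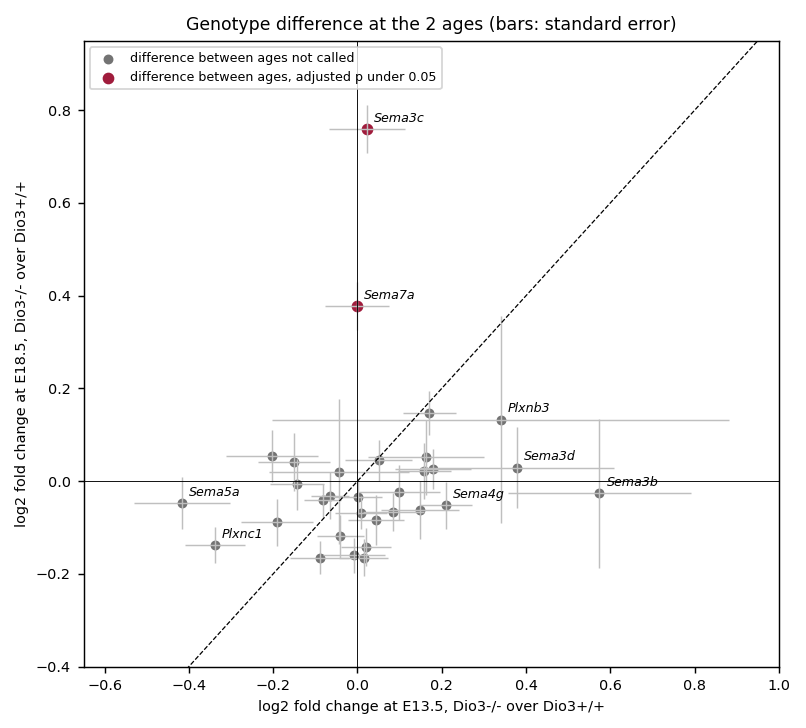
Log2 fold change of Dio3-/- over Dio3+/+ at E18.5 against that at E13.5 for the 31 members, with standard errors as bars and a dashed line where both are equal. Sema3c and Sema7a (red) lie near 0 at E13.5 and at 0.76 and 0.38 at E18.5.

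Other genes of semaphorin signalling, a list of 10 co-receptors and 31 effectors, were all tested at both ages. Of the 41 genes 2.44% were called at E13.5, against 3.56% of all genes tested, and 4.88% at E18.5, against 1.37%, where both called genes were among the 10 co-receptors. At E13.5 only Dpysl4 was called, a member of the collapsin response mediator proteins that act on microtubules (log2 fold change 0.33, standard error 0.08, adjusted p = 0.00256). At E18.5 Itga1, the integrin subunit that pairs with Itgb1, was higher (0.29, standard error 0.07, adjusted p = 0.00320), and Nrcam, an adhesion molecule that joins neuropilin complexes, was lower (-0.11, standard error 0.03, adjusted p = 0.0426). Met, a receptor tyrosine kinase that associates with class B plexins, had a value of 0.21 (standard error 0.06) and was not called (adjusted p = 0.0722). None of the 31 effectors was called at E18.5 in the DESeq2 statistics, and 3 had an unadjusted p under 0.05. The median over the 41 genes was 0.01 on the log2 scale at E13.5 and -0.02 at E18.5.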

How the data were processed

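Total RNA of 14 whole brains of fetuses reported as male was depleted of ribosomal RNA and sequenced in 2 batches. The authors trimmed the reads with cutadapt 3.1, aligned them to GRCm38 with STAR 2.5.3a on a GENCODE index, counted them per gene with HTSeq (union, strand ignored), removed the batch effect with ComBat-seq and compared genotypes within each age with DESeq2 1.30.1. The labels do not give the batch of a library, so no within-batch value was computed, and batch and genotype cannot be told apart here beyond that adjustment. The deposited mean normalized count is a signal, the average over the libraries of an age. The deposited log2 columns are the fold change and its standard error. The deposited Wald statistic is a score, namely their quotient, and the deposited p-value of that statistic is two-sided. The deposited adjusted p-value is the authors' own adjustment. All are columns of the authors' comparison and hold no single library, so that depth is unknown, and p-values measure the spread between these fetuses as the model of the authors estimated it.

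Genes were filtered by their mean normalized count at the best of 50 quantiles, which is the authors' default in DESeq2 (cutoffs 21.7 at E13.5 and 13.8 at E18.5), and p-values were adjusted over all kept genes by Benjamini and Hochberg (Python 3.11.15, scipy 1.17.1, statsmodels 0.14.6). Genotype effects at the ages were compared by a two-sided z test from both standard errors, over genes with means of 10 or more at both ages. Implied levels treat the mean as the average of both genotypes weighted by their libraries. Intervals are normal at 95%. Exon lengths, positions and overlaps come from GENCODE M21 on GRCm38, an older release than that of the authors, which matched 41897 genes and all 31 members. Promoter windows come from RefSeq on GRCm38.p6. Members and lists were chosen with earlier results of these data known, as was the rule for named genes (all members, pathway genes that were called or else had the smallest p, and up to 4 genes of each marker list). Results of a few marker genes are not reported here. The sex-linked genes, the level of 1000 counts and the band of 0.25 were chosen after values had been seen. The scripts were tested on simulated data. Columns of per-sample values left unused numbered 0. Alternatives were a t distribution, a rescaled statistic, other filters, the deposited adjusted p, centring, GC content with length, and an unadjusted threshold.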

Additional observations from a re-analysis of the deposited data

Results flagged for a closer look

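The genotype effect on Sema3c and Sema7a differed between the ages by a test of the difference itself. For Sema3c the log2 fold change of Dio3-/- over Dio3+/+ was 0.02 at E13.5 and 0.76 at E18.5, a difference of 0.74 (standard error 0.10). For Sema7a it was 0.00 at E13.5 and 0.38 at E18.5, a difference of 0.38 (standard error 0.09). The 2 ages come from different fetuses and were normalized apart, and the telencephalon markers, of which 12 of 13 were called as lower at E13.5 and none at E18.5, moved with genotype at the earlier age. Xist also moved with genotype, called as higher in Dio3-/- brains at E13.5 (log2 fold change 3.93, standard error 1.11). At E18.5 it was not called (1.43, standard error 0.99). The part of these markers and of Xist in the 2 differences was not tested.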

How the results depend on the processing

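A t distribution in place of the normal one ended every call among the members. The number of members called was then 0 at E13.5, 0 at E18.5 and 0 for the difference between ages. Of all 16436, 17607 and 17793 genes tested, 0, 1 and 9 were called. An unadjusted p under 0.05 was found for 3, 9 and 7 members and for 799, 714 and 1217 of all tested genes. With the statistic divided by its central spread, 1 member was called at E13.5 (Plxnc1) and 6 at E18.5, against 320 and 212 of all tested genes. An unadjusted p under 0.01 gave 5 members at E13.5, with Sema3b and Sema6c added, and 9 at E18.5, with Sema4c and Sema6c added. That threshold was met by 1012 of the 31372 genes with a p at E13.5 and by 624 of 32495 at E18.5. Without the filter, and with GC content and length removed, 5 members were called at E18.5, without Plxnb1 and Plxnc1. Over all genes these 2 settings gave 198 and 220 calls. The filter at a mean of 10, the deposited adjusted p and centring gave 3 and 7 calls among the members. Over all genes they gave 557, 588 and 543 calls at E13.5 and 239, 246 and 246 at E18.5. After centring, 3 members differed between the ages, with Sema4g added, as did 331 of all tested genes. Values that were not called changed sign in 3 cases, to 0.015 for Nrp2 and 0.022 for Sema7a at E13.5 after centring, and to 0.031 for Plxna2 at E18.5 with GC content and length removed. Centring subtracted the E13.5 median of -0.023 over genes with a mean of at least 100, which moved both E13.5 values above 0. The cause of the change for Plxna2 was not tested. Leaving out replicates was not run, because the tables hold no value of a single library. No paired analysis was possible because the columns carry no library or replicate number. The intervals at E13.5 were widest for Plxnb3, Sema3d, Sema3b and Sema3g, and depth per library is unknown.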
